A study of Mus musculus with 2 samples.

Results

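The genes described here are the microRNA genes of the distal stretch of the imprinted Dlk1-Dio3 locus of the mouse, the run that starts at Mir379 and ends at Mir410, with Mir3072 just beyond it. The members are given by a list of gene symbols in the GENCODE annotation of chromosome 12. No measured value enters the rule, but the list was chosen with earlier results of these data known. All 35 listed genes were among the 1973 microRNA genes of the count tables. Whole limb of B6NCrl mouse embryos, male and female pooled, had been profiled by microRNA sequencing at embryonic day 14.5, with RNA inserts under 30 nucleotides. There was 1 group of 2 samples, biological replicates 1 and 2, each made from 4 limbs and collected on different days, with no genetic change or treatment on the labels. The donor and pup labels were identical for the 2 samples, so p-values between the libraries measure only the spread between these samples, which may be technical. The libraries held 9001596 and 8387546 reads, and own-strand counts at microRNA genes came to 4608816 and 4144385. Levels are given in CPM, the count of a gene scaled to that sum.

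A microRNA gene is transcribed as part of a longer primary RNA, cut to a hairpin by Drosha and then by Dicer to a duplex with a 5p and a 3p arm. The arm that is loaded into an Argonaute protein pairs with target mRNAs mainly through its seed, bases 2 to 8 from the 5′ end. The Dlk1-Dio3 locus is imprinted: its noncoding RNAs and microRNAs come from the maternal chromosome, whereas Dlk1, Rtl1 and Dio3 are expressed from the paternal one. The distal run of hairpins is found in placental mammals only. It is best known from brain, where Mef2 induces it in neurons and miR-134 limits the growth of dendritic spines, and mice that lack it on the maternal chromosome show low blood glucose after birth.

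The members share much of their sequence. The mature sequences below are from the RefSeq table of build GRCm38.p6. It matched all 35 members and gave 66 arms, 31 members with both arms and 4 with 1. Only the 5p arm was given for Mir376c, Mir487b and Mir539, and only the 3p arm for Mir485. Their other arms are absent from the seed counts and families below. Capitals mark the seed, and each line is written 5′ to 3′. The first set shows the 4 seeds that 2 members have in common, with miR-411-5p added because its seed lies 1 base from that of miR-379-5p.
miR-379-3p: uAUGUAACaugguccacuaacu
miR-411-3p: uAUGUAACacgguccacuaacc
miR-379-5p: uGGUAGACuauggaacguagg
miR-1193-5p: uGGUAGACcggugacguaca
miR-411-5p: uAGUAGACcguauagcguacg
miR-494-5p: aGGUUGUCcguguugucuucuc
miR-410-5p: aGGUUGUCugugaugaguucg
miR-1197-5p: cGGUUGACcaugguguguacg
miR-758-5p: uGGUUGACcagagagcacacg

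The second set shows arms of other abundant members, with relatives whose seed differs by 1 base.
miR-487b-5p: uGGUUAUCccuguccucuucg
miR-409-5p: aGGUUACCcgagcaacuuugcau
miR-496a-5p: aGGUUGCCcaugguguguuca
miR-381-3p: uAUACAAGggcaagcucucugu
miR-300-3p: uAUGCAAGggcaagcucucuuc
miR-369-3p: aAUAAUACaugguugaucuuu
miR-154-3p: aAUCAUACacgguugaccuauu
miR-485-3p: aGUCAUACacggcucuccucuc
miR-376a-3p: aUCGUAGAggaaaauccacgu
miR-541-5p: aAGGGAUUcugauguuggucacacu
miR-382-5p: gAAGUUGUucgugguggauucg

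Of the 62 different seeds among the 66 arms, 4 belonged to 2 members each, which took in 7 members. A further 37 pairs of arms from different members had seeds that differed at 1 base, and 24 members took part in at least 1 such pair. Counted from the 5′ end of the mature sequence, miR-379-5p and miR-411-5p differed by G2A, miR-300-3p and miR-381-3p by G4A, miR-485-3p and miR-154-3p by G2A, and miR-154-3p and miR-369-3p by C4A. On the 5p side the repeated element was GGUU: 12 of 34 5p arms (35.3%) held it within the first 8 bases, against 17 of 663 5p arms of other mouse microRNA genes (2.56%). This element and the 2 of the hairpins below were searched after the sequences had been seen, on the strand of the microRNA only.

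The likeness extended to the hairpins. The letters UACUUG stood in 9 of the 33 member hairpins that the table gave (27.3%) and in 9 of 261 hairpins of other detected genes (3.45%). The letters AGUAUC stood in 6 member hairpins (18.2%) and in 0 of these 261 others, and in 12 of 840 hairpins when every other gene of the count tables was included (1.43%). Of 18 hairpins of the proximal genes of the same locus, 0 held either element. Hairpins were searched along their whole length, and Mir382 also held UACUUG away from its ends. The hairpin given for Mir485 begins with ACUUG, so these counts depend on where each given sequence starts and stops. Mir411, Mir487b, Mir494 and Mir369 held both, and the 2 most abundant of them are shown with the elements in capitals, near the 2 ends of the hairpin.
Mir411: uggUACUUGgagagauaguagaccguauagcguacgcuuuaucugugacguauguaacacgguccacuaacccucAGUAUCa
Mir487b: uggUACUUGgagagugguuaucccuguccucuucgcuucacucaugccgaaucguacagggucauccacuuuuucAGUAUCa
In GRCm38, Mir411 (ENSMUSG00000065477.2) spans bases 109710175 to 109710256 of chromosome 12 and Mir487b (ENSMUSG00000076219.1) bases 109727333 to 109727414, both on the plus strand and outside any host transcript of the annotation. Members with UACUUG ran from 96.5 to 11798 CPM (9 hairpins, median 960 CPM) and members without it from 3.74 to 7700 CPM (24 hairpins, median 416 CPM), and the 2 ranges overlapped.

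All 35 members were detected, with at least 10 counts in both libraries. Of the genes annotated in the run but not listed, Mir654 and Mir453 had 0 counts and Gm27379 had 4 and 6. The count of detected members and their levels therefore describe the list, which was chosen with earlier results of these data known. In all, 337 of the 1973 listed genes were detected, with opposite-strand reads used for 4 members and for no other gene. When each gene was read on its larger strand, which added opposite-strand reads at 7 other genes, 343 were detected and their median was 191 CPM. Together the 35 members held 363464 counts in replicate 1 and 285973 in replicate 2, which is 78863 and 69003 CPM, or 73933 ± 6972 CPM (SD, n = 2). Set against the own-strand sums, these counts equal 7.89% and 6.90%, but those sums do not hold the opposite-strand reads of 4 members described below. The 31 members read on their own strand were 6.28% and 5.46% of the own-strand sums. With every gene of the tables read on its larger strand, all 35 members were 7.63% and 6.69% of the sum. The median member stood at 417 CPM, against a median of 185 CPM over all detected genes. Levels of at least 1000 CPM were reached by 14 members (40.0%) and by 30.3% of detected genes, and at least 10000 CPM by 2 members and 23 detected genes.

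The counts were concentrated in a few genes. The 5 highest members held 56.4% of the cluster's counts in replicate 1 and 54.9% in replicate 2, and the 12 highest held 89.5% and 89.1%. Mir411 came first with 12873 CPM in replicate 1 and 10723 CPM in replicate 2. Mir487b followed with 11739 and 9253 CPM, and these ranges overlapped, although Mir411 was above Mir487b in each library. Mir379, the first gene of the run, was at 8116 and 7283 CPM, below the lower value of Mir487b. These 3 genes lie upstream of the annotated noncoding gene Mirg.

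Below them stood 4 genes whose neighbours in the order were not separated by the 2 libraries. Mir541, in an intron of Mirg, was at 5862 and 5762 CPM. Mir381, one of the cluster members that neurons induce with activity, was at 5874 and 4853 CPM. Mir409 was at 5154 and 4829 CPM and Mir376a, whose precursor is edited from adenosine to inosine in brain, at 5307 and 4585 CPM. The ranges of each neighbouring pair among these 4 overlapped, and Mir541 and Mir381 changed places between the libraries, as did Mir409 and Mir376a. Mir541 lay above both values of Mir409 and of Mir376a. Mir369 (4069 and 3711 CPM) and Mir382 (3528 and 3360 CPM), both in exons of Mirg, each lay in a range of their own. Mir380 (2974 and 2542 CPM), Mir299a (2629 and 2412 CPM) and Mir154 (2475 and 2196 CPM) again overlapped from one to the next.

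**Figure D1:**
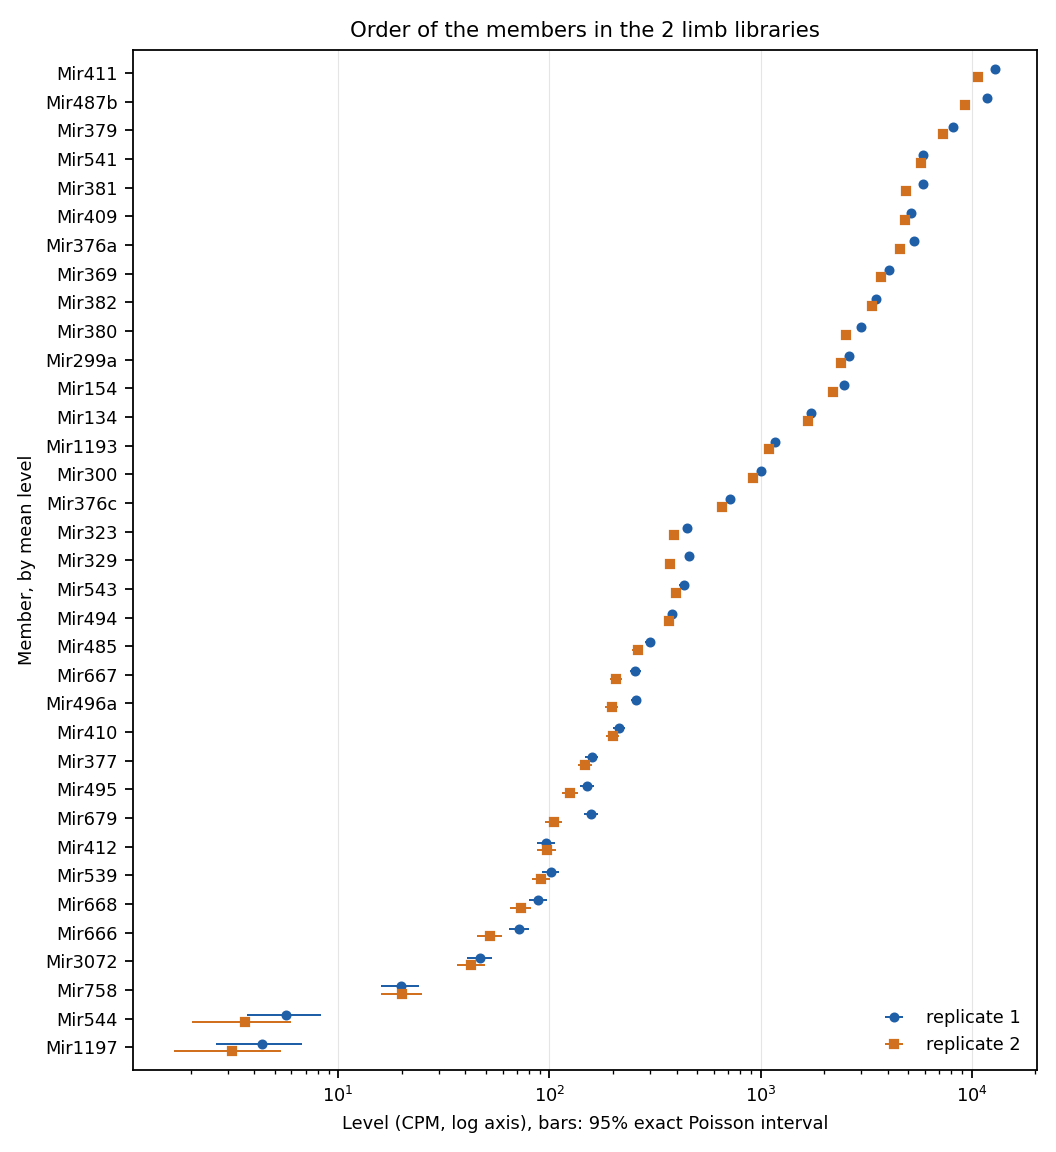
The level of each of the 35 members in CPM on a log axis, ordered by mean, with circles for replicate 1, squares for replicate 2 and bars for the 95% exact Poisson interval of each count. Mir411 and Mir487b lead, and Mir544 and Mir1197 close the order with intervals that overlap each other.

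Over the whole order, 14 of the 34 neighbouring pairs had overlapping ranges, and 26 pairs stood in the same order in both libraries. No member moved by more than 2 ranks, and 22 held the same rank. Mir134, the dendritic spine microRNA, was 13th with 1731 and 1668 CPM and Mir1193 14th with 1166 and 1096 CPM. Another 13 members lay between 131 and 960 CPM. They were Mir494 (381 and 367 CPM), Mir410 (214 and 200 CPM), Mir300, Mir376c, Mir323, Mir329, Mir543, Mir485, a microRNA of synapses, Mir667, Mir496a, Mir377, Mir495 and Mir679. The count behind Mir376c is uncertain, since its precursor shares a stretch of 22 nucleotides with Mir376b, which was not counted as a gene in the tables.

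At the low end were 8 members under 100 CPM. Mir412, Mir539, Mir668 and Mir666 ran from 96.7 down to 61.9 CPM in the mean, and Mir3072, the member beyond Mir410, was at 46.9 and 42.7 CPM. Mir758 was at 19.7 and 20.0 CPM from 91 and 83 counts. Mir544 had 26 and 15 counts, or 5.64 and 3.62 CPM, and Mir1197 had 20 and 13 counts, or 4.34 and 3.14 CPM. The 95% exact Poisson interval of Mir1197 was 2.65 to 6.70 CPM in replicate 1 and 1.67 to 5.36 CPM in replicate 2, which holds the values of Mir544, so their order was not resolved at this depth. These intervals cover counting error only. The mean level of Mir411 was 3156 times that of Mir1197. The yield of reads per molecule of each microRNA is unknown here, so the order is one of reads.

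For 4 members the reads came from the strand opposite to the gene named in the tables. Mir409 was read at Gm24321, Mir376a at Gm25252, Mir380 at Gm25750 and Mir299a at Mir299b, where the tables list the minus-strand gene and not the microRNA gene itself. They held 16063 CPM in replicate 1 and 14369 CPM in replicate 2, or 20.4% and 20.8% of the cluster, so that a sum of own-strand reads alone gave 62799 and 54633 CPM. The Gm genes had 0 counts on their own strand in both libraries, a limit of 3 counts, equal to 0.651 and 0.724 CPM. Conversely, the 31 members read on their own strand had 0 opposite-strand counts in both libraries together.

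Position along the chromosome was then compared with level. With Mir3072 the members cover 38.9 kb, from base 109709060 to base 109747960 of chromosome 12 (GRCm38), with a median gap of 639.5 bases between hairpins and a largest gap of 4368 bases, between Mir544 and Mir382. The annotated start of Mirg falls in that gap: 22 members lie upstream of it in no annotated host transcript, and 13 lie within it, 9 overlapping an exon and 4 in introns. The upstream members summed to 54884 and 46458 CPM and those in Mirg to 23979 and 22544 CPM. Their medians were 418 and 280 CPM. The Spearman rho of level with position was -0.10, a description across 35 genes of 1 locus in the same libraries.

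**Figure D2:**
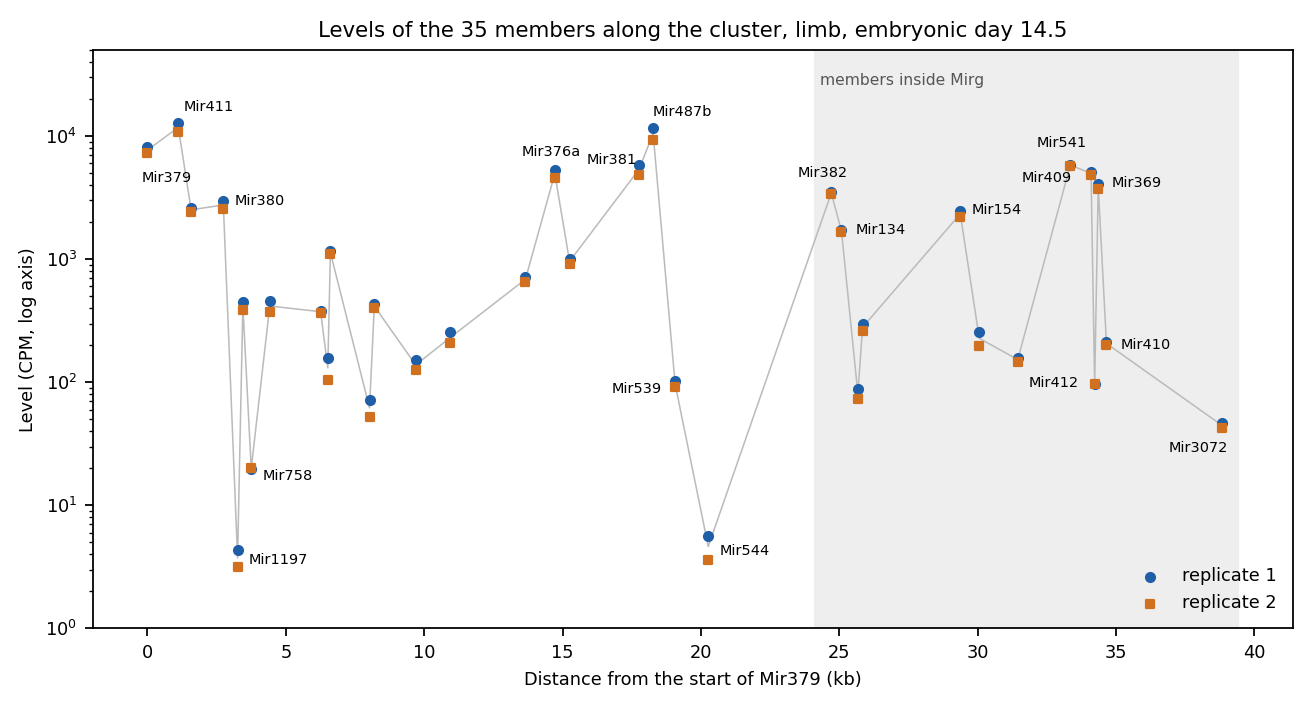
Level of each member in CPM (log axis) against its distance from the start of Mir379 in kb, with circles for replicate 1, squares for replicate 2, a grey line through the means and grey shading over the members inside Mirg. Levels change in steps along the run: Mir487b at 10496 CPM in the mean is followed by Mir539 at 96.5 CPM, and Mir412 at 96.7 CPM stands between Mir409 and Mir369.

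Neighbours on the chromosome differed by a median of 6.96-fold. Of the 34 neighbouring pairs, 14 differed more than 10-fold and 7 by 2-fold or less. Mir409 and Mir412 are 52 bases apart and Mir412 and Mir369 49 bases apart, yet Mir409 was 53.5 times Mir412 in replicate 1 and 49.8 times in replicate 2, and Mir369 was 42.2 and 38.3 times Mir412. Mir412 itself was at 96.3 and 97.0 CPM. Mir487b was 116 and 101 times its downstream neighbour Mir539, 714 bases away. Each of these steps was larger than the spread between the libraries, in which 34 of 35 members lay within 1.5-fold (88.0% of tested genes did).

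The seed families were uneven too. Counts are per hairpin, so which arm a read came from is not known, and each sum below is an upper limit for the counted reads of the arm named. Mir379 and Mir411, which share the 3p seed AUGUAAC, summed to 20989 and 18007 CPM, 19498 ± 2109 CPM (SD, n = 2). Mir379 and Mir1193, which share the 5p seed GGUAGAC, summed to 8831 ± 638 CPM, of which Mir1193 gave 1131 ± 49.7 CPM. Mir494 and Mir410, with the 5p seed GGUUGUC, summed to 581 ± 19.6 CPM, and Mir1197 and Mir758, with GGUUGAC, to only 23.6 ± 0.651 CPM. Among seeds 1 base apart, Mir381 stood at 5364 ± 722 CPM and Mir300 at 960 ± 57.7 CPM. Mir369, Mir154 and Mir485, linked through their 3p arms, were at 3890 ± 253, 2336 ± 198 and 280 ± 25.5 CPM. The 3p arm of Mir487b was not given, so it could not be compared with these. The 5p seeds of Mir487b, Mir409, Mir496a and Mir410 form a chain of single changes, and their genes stood at 10496 ± 1758, 4992 ± 229, 227 ± 42.5 and 206.6 ± 10.02 CPM.

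Some of the seeds recurred in genes outside the list. Of the 62 seeds, 12 also occurred in a mature sequence of such a gene. The 4 seeds shared between members were not among them. Mir453 and Mir376b, which hold the seeds of miR-496a-5p and miR-376c-5p, lie within the run itself. The share was not computed for seeds of other mouse microRNA genes. Mir362, of a cluster on the X chromosome, shares the seed of miR-329-3p and was at 475 and 434 CPM, beside 460 and 373 CPM for Mir329. Mir672 shares the seed of miR-377-5p and was at 197 and 237 CPM, beside 158 and 147 CPM for Mir377. Mir370, of the proximal part of the same locus, shares the seed of miR-1193-3p and was at 587 and 561 CPM. Mir1983 shares the seed of miR-412-3p and was at 1679 and 1711 CPM. For Mir410 the 4 other genes with the seed of its 3p arm, of the Mir344 family, had 0 or 1 count. Mir344d-1, Mir344d-2 and Mir344d-3 have the same mature 3p sequence, and a read that aligns to more than 1 place was counted at no gene, so their 0 says nothing of that sequence in the limb. A further 5 genes outside the list (Mir1192, Mir7221, Mir453, Mir467h and Mir3620) had 0 counts in both libraries.

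Base composition and folding of the hairpins were described for the 33 members with a hairpin sequence. They were 61 to 121 nucleotides long, with a GC content from 29.1% (Mir376c) to 72.3% (Mir3072) and a median of 43.3%, against 50.9% over 261 other detected hairpins. Predicted folding energies ran from -46.7 to -16.6 kcal/mol, the weakest being that of Mir376a, which was among the 7 most abundant members. Level had a Spearman rho of -0.24 with GC content and 0.08 with folding energy per nucleotide. Both are descriptions across genes of 1 locus that share their libraries.

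Most of the cluster was lower in replicate 2 than in replicate 1. In replicate 2, 33 of 35 members had a lower CPM than in replicate 1, against 43.7% of the 410 tested genes (at least 10 counts in total). The median log2 ratio of replicate 2 over replicate 1 was -0.16 for the members and 0.04 for all tested genes. The counts were tested with an exact binomial test, two-sided, conditional on library size and adjusted by Benjamini-Hochberg over all 410 genes. By it, 0 members passed an adjusted p under 0.05 together with a 2-fold change, against 0.976% of tested genes. Without the fold threshold, 23 members passed as lower (16.6% of tested genes did) and 0 as higher (19.8% did), and 25 members had an unadjusted p under 0.05 (41.5% of tested genes did). Its error is that of counting alone, and it sets 2 libraries of the same condition side by side. The exact test of edgeR, run with a coefficient of variation assumed to be 0.1, gave a different count: 0 members and 0% of the 410 tested genes passed an adjusted p under 0.05, and 1 member and 3.9% of tested genes had an unadjusted p under 0.05. In tissue samples such as these, fewer cells of a type, less microRNA per cell and a technical difference between the libraries cannot be told apart.

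The log2 ratio of Mir487b was -0.34 and that of Mir411 -0.26, both past an adjusted p of 0.05 in the exact binomial test. Mir679 had the largest ratio past that threshold, -0.58, with 724 counts against 434 (exact binomial test, adjusted p = 9.46e-11). The ratio of Mir544 was -0.62 but rested on 26 against 15 counts (adjusted p = 0.402). Mir541, with 27017 and 23879 counts, had a ratio of only -0.02 (adjusted p = 0.123). Mir758 and Mir412 had ratios of 0.02 and 0.01, which turned to -0.04 and -0.05 with TMM scaling and to -0.05 and -0.06 with DESeq2 size factors. With either scaling all 35 members were lower, against 54.4% (TMM) and 57.6% (DESeq2) of the 410 tested genes.

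The size of the ratio differed along the run. Of the 22 members upstream of Mirg, 21 were lower in replicate 2, with a median log2 ratio of -0.22, and of the 13 in Mirg 12 were lower, with a median of -0.10. Among members with at least 1000 counts in total the medians were -0.21 over 17 upstream members and -0.10 over 10 in Mirg. Within these well-counted members the 2 sets overlapped, from -0.58 to -0.05 upstream and from -0.38 to -0.02 in Mirg. The share of the cluster's counts from Mirg was 30.4% in replicate 1 and 32.7% in replicate 2. The difference between the 2 sets was not tested, since 2 libraries give no replicate of it.

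**Figure D3:**
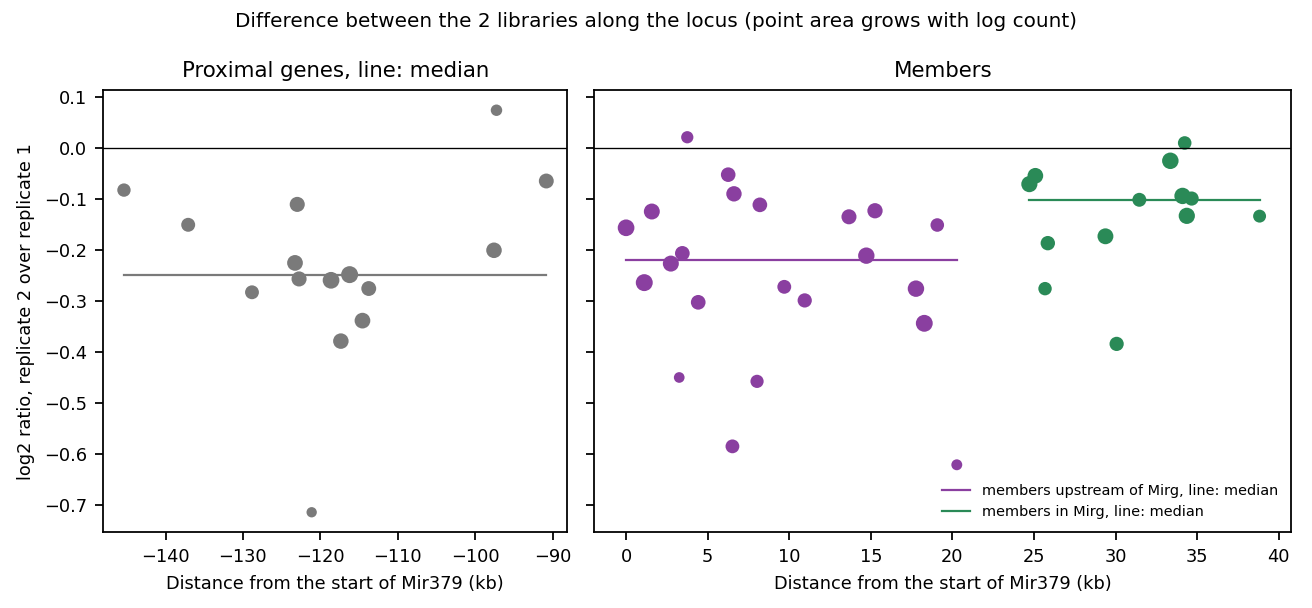
The log2 ratio of replicate 2 over replicate 1 against the distance from the start of Mir379 in kb, for the proximal genes on the left and the 35 members on the right (the 2 panels have different distance scales), with point area growing with the log of the count and lines at the medians of -0.25, -0.22 and -0.10. Nearly all points lie below 0, and the 2 sets of members overlap, with a median closer to 0 for those in Mirg.

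The proximal genes of the locus, from Mir770 to Mir370, were set beside the members. Of 17 listed proximal genes in the tables, 15 had enough counts for the test and 14 of these were lower in replicate 2, with a median log2 ratio of -0.25. They summed to 32254 and 27094 CPM, so the distal cluster held 2.45 times their sum in replicate 1 and 2.55 times in replicate 2 (2.50 ± 0.0719, SD, n = 2). Mir136 of the proximal list was not among the counted genes, so the 2 sums may not be equally complete. Opposite-strand reads were added for members only. With the either-strand column for every counted gene of both lists, the mean ratio was 2.4958, against 2.4959 as reported. Of the 15 tested genes Mir1188 alone was higher in replicate 2, with 37 and 35 counts. The same 2 libraries underlie all of these values.

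Markers of limb tissues were read to check the label. The cartilage gene Mir140 (55579 and 58999 CPM), the Hox cluster gene Mir196b and the epidermal gene Mir203 were abundant, while Mir124a-1, Mir124a-2 and Mir124a-3 of neurons and Mir9-2 of neural tissue had 0 counts and Mir9-3 had 2 and 0. Mir124a and Mir9 have several gene copies, whose shared reads were not given to genes, so these low counts bear little on the label. Of 15 listed markers 14 were in the tables and 9 were tested, of which 5 were lower in replicate 2 and 4 higher. The markers summed to 195613 and 191089 CPM. The skeletal muscle gene Mir206 was lower with the members, at 6041 against 4411 CPM, and so were Mir203, at 40413 against 31563 CPM, Mir451a of red blood cells, at 459 against 350 CPM, Mir205 of basal epithelium, at 13487 against 12288 CPM, and the Hox cluster gene Mir10b, at 11147 against 9763 CPM. Higher in replicate 2 were Mir140, Mir196b, at 49518 against 54433 CPM, the endothelial gene Mir126a, at 18963 against 19268 CPM, and the liver gene Mir122, with 29 against 56 counts. The part of any of these tissues in the shift of the cluster was not tested.

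Of the other microRNA genes annotated within the run, Mir654 and Mir453 had 0 counts in both libraries and Gm27379 had 4 and 6 counts. Mir376b was not among the genes of the tables and was not analysed here.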

How the data were processed

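The deposited tables held raw, unnormalized counts of reads per microRNA gene for 2 limb libraries. The authors used the mm10 assembly and GENCODE annotation M4, per the deposited read-me texts. The aligner and counter are not given in the sources used here. From their values, the 3 columns were read as either-strand, own-strand and opposite-strand counts. Reads with several alignments, 31.8% and 32.6% of all reads, were not given to genes. Library sizes leave out the 4 rows that tally reads outside genes. Names and positions came from GENCODE M21 (GRCm38), by gene identifier, for 1894 of 1973 genes.

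CPM used the own-strand sum, also for the 4 members read on the opposite strand. Detection required 10 counts in both libraries. Log2 ratios carried a prior count of 0.5. Shared stretches of 22 nucleotides were searched on both strands, between genes that do not overlap. The binomial script was tested on simulated data. Tools were RNAfold 2.7.2, edgeR 4.0.16 and DESeq2 1.42.0 under R 4.3.3, and scipy 1.17.1, pandas 2.3.3, numpy 2.4.6 and matplotlib 3.10.9 under Python 3.11.15. Alternatives were TMM and DESeq2 scaling, other totals, strands, count filters and single replicates. The members and lists were chosen with earlier results of these data known. Named with both values are the 12 highest members, both ends of the run, the members read on the opposite strand and those sharing a seed. Other members were named after their values were seen.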

Additional observations from a re-analysis of the deposited data

Results flagged for a closer look

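Reads on the own strand of Mir299b, outside the measurement used for that place, exceeded the level of 3 counts taken as the limit for a gene with none. They amounted to 7 counts in replicate 1 and 14 in replicate 2, or 1.52 and 3.38 CPM, with a mean of 2.45 CPM. The opposite strand, read here as Mir299a, held 12115 and 9995 counts. The hairpins of Mir299a and Mir299b lie over each other on the 2 strands. The 2 arms of the Mir299a hairpin hold stretches that are exact reverse complements, so a read from within them matches both strands. A read with several alignments was counted at no gene, so the count of Mir299a is uncertain. Whether the few reads come from a transcript of the minus strand or from Mir299a itself was not tested.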

How the results depend on the processing

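The summed level of the members was 45097 CPM when reads with several alignments were added to the total, against 73933 CPM, because the total grew and the members' counts did not, and the level of each of the 35 members was lower by the same change of total. With TMM factors, DESeq2 size factors or the either-strand column it moved by less than the spread between the libraries, and single replicates gave 69003 to 78863 CPM. Single replicates gave 54.9% to 56.4% for the share of the 5 highest members and 2.45 to 2.55 for the ratio to the proximal genes. The counts of members detected, called and lower in replicate 2 stayed within 1.5 times under the alternatives run for each. The ratio to the proximal genes, the share of the 5 highest members and the sums of the shared seeds stayed within their spread. With 2 libraries a single replicate always lies within that spread of the mean, so single replicates could not show a move. TMM factors, 0.981 and 1.020, scaled the 2 libraries in opposite directions, so a mean over both could move little. For the order, only the number of neighbouring pairs with overlapping ranges was followed. It was 14 as reported, 17 with TMM factors and 18 with DESeq2 size factors, of 34 pairs. With TMM factors the log2 ratio of Mir758 was -0.0353 and that of Mir412 -0.0465, and with DESeq2 size factors they were -0.0492 and -0.0604, changes of sign in genes that passed no test. TMM moved the median log2 ratio of all tested genes from 0.04 to -0.02 and DESeq2 to -0.03, and the share of tested genes lower in replicate 2 from 43.7% to 54.4% and 57.6%. The alternatives for the order, the 2 parts of the run, the seed families and the strand of all genes were chosen after seeing the data. Depth limits Mir544 and Mir1197, and 32 of 35 members had at least 100 counts in both libraries. No paired analysis was possible because there was 1 group.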
